A study of Homo sapiens with 4 samples.

Results

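Antisense transcripts are RNAs read from the DNA strand opposite to another gene. The deposited expression table held 5268 rows typed antisense among 53777 rows with an Ensembl gene identifier. Of these, 1999 were above 0 in at least 1 of the 4 libraries and 317 averaged 1 FPKM or more. FPKM counts sequenced fragments relative to the length of the transcript and the size of the library. After 10 rows listed at 0 in 2 or more libraries were left out, 307 expressed antisense transcripts remained, and these are described here. They were chosen by level, so their levels are a description. The rule used no difference between knockdown and scramble, but the zeros and the mean over all 4 libraries can admit a transcript through 1 group: 30 had a scramble mean under 1 FPKM and 17 a knockdown mean under 1 FPKM.

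Total RNA was taken from NUGC3 cells, a line grown from a human gastric cancer. The NIPBL knockdown group had 2 libraries, 1 from cells transfected with hairpin 1 (shNIPBL#1) and 1 with hairpin 7 (shNIPBL#7). The scramble group had 2 libraries of cells given a non-targeting control, and the label of the second is that of the first with a suffix. The marks DOX and combined stand in all 4 labels with no explanation. Nothing in the labels says that libraries came from separate cultures, so a p-value here reflects variation among 4 libraries, possibly technical.

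Many antisense RNAs start close to the promoter of a coding gene and run away from it, and others run back across the gene and share exonic sequence with it. Some carry small nucleolar RNAs in their introns, some act on chromatin or RNA elsewhere in the cell, and for most no role is known. NIPBL loads the cohesin ring, which folds chromosomes into loops and brings promoters together with distant elements.

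NIPBL itself was at 7.27 FPKM with hairpin 1 and 9.17 FPKM with hairpin 7, against 23.9 and 23.1 FPKM in the scramble libraries (log2 change -1.42 ± 0.14 SE, n = 2 each, adjusted p = 0.0218 by limma). Log2 changes throughout are differences of mean log2(FPKM + 1), knockdown minus scramble, a scale on which changes of low genes are understated, and adjusted p-values are from limma over 12834 genes averaging 1 FPKM or more. Summed FPKM was 749446 and 682076 in the knockdown libraries, against 739335 and 730732 in the scramble libraries, and read depth is unknown. Epithelial markers were present, with 8 of 10 at 1 FPKM or more and sums of 4221 to 5154 FPKM in knockdown and 5129 to 5186 FPKM in scramble. Of 5 immune markers only CD68 passed 1 FPKM and PTPRC was listed at 0 throughout. Their sum was 31.6 to 37.8 FPKM in knockdown and 12.4 to 17.3 FPKM in scramble. CD68, with a mean of 24.7 FPKM over the 4 libraries, made up nearly all of it. Of 5 fibroblast markers only COL1A1 passed 1 FPKM and COL1A2 was listed at 0. The fibroblast sum was 7.37 to 9.59 FPKM in knockdown and 5.76 to 6.57 FPKM in scramble, nearly all of it COL1A1 (mean 7.26 FPKM). None of 3 endothelial markers found reached 1 FPKM. The part of these sums in the results was not tested, and in bulk RNA a change in the makeup of the cells and a change per cell cannot be told apart.

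The 307 transcripts were mostly rare. Their mean over the 4 libraries had a median of 2.42 FPKM, with 128 between 1 and 2 FPKM, 112 between 2 and 5 FPKM, 58 between 5 and 20 FPKM and 9 at 20 FPKM or more. Together they held 0.304% of all FPKM with hairpin 1 and 0.320% with hairpin 7, against 0.415% and 0.528% in the scramble libraries. Without RN7SL1, the most abundant row, the shares were 0.236% and 0.244% in knockdown and 0.242% and 0.242% in scramble.

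Of the 307 transcripts, 6 passed the adjusted threshold of 0.05 (1.95%, against 2.56% of all genes tested). Of the 307, 3 were called higher in knockdown (0.977%, against 1.45% of all genes tested) and 3 lower (0.977%, against 1.11%). At an unadjusted p under 0.05 there were 66 (21.5%, against 26.4% of all genes tested). Of the 307, 37 were higher (12.1%, against 13.6%) and 29 lower (9.45%, against 12.8%). The share of antisense transcripts called was thus near the background. Both knockdown libraries lay above both scramble libraries for 94 transcripts (30.6%, against 29.5% of all genes tested), and below them for 67 (21.8%, against 30.8%). The median log2 change was 0.07 for the antisense transcripts and -0.01 over all genes tested. Low genes in general leaned the same way: between 1 and 2 FPKM, 27.3% of the antisense transcripts were above and 18.8% below, against 29.9% and 21.5% of all genes at that level. Long intergenic RNAs, another class of low noncoding transcripts, had 97 of 308 above and 60 below, with a median log2 change of 0.08 and 10 called. Leaving out either scramble library left 0 antisense transcripts called by limma (39 without scramble 1 and 35 without scramble 2 at an unadjusted p under 0.05), and 0 of all genes tested (1060 and 1052). Leaving out any 1 library leaves 1 library in its group, so the spread then comes from the other pair alone. Call counts without a hairpin library are therefore not compared with the main fit.

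**Figure D1:**
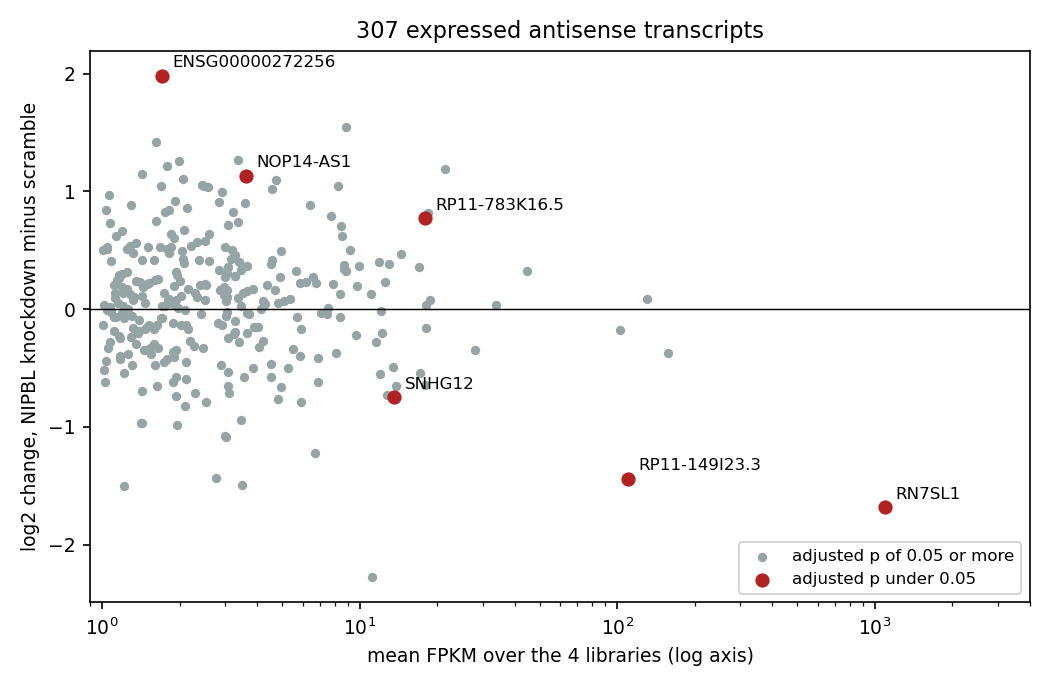
Change in log2(FPKM + 1), NIPBL knockdown minus scramble (y axis), against mean FPKM over the 4 libraries (x axis, log scale), with 1 point for each of the 307 antisense transcripts. The 6 red points have a limma adjusted p under 0.05; RN7SL1 and RP11-149I23.3 lie among the most abundant transcripts and are lower in knockdown, and most other points sit between 1 and 5 FPKM.

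Spread between libraries was wide for these transcripts. The SD of the log2 difference between the 2 scramble libraries was 0.60 over the antisense transcripts and 0.28 over all genes tested. By level it was 0.56 against 0.51 between 1 and 2 FPKM, 0.56 against 0.39 between 2 and 5 FPKM, 0.75 against 0.27 between 5 and 20 FPKM and 0.39 against 0.10 at 20 FPKM or more. The gap was thus narrow for the rarest transcripts. Between 5 and 20 FPKM the SD leans heavily on RP11-53O19.1 and RP11-24N18.1. RP11-53O19.1 was at 0 and 9.12 FPKM in scramble, and RP11-24N18.1 had a scramble mean of 7.19 FPKM with an SD of 10.2 FPKM. The SD was not computed without them, so a wider gap at that level is not shown for the transcripts as a class. Between the hairpins the SD was 0.73 over the antisense transcripts and 0.45 over all genes tested. Other classes were wide as well. Long intergenic RNAs had SDs of 0.57 between the scramble libraries and 0.74 between the hairpins, and pseudogenes 0.74 and 0.81. Rows typed sense intronic had 0.67 and 0.59, and processed transcripts 0.44 and 0.62. Wide spread was thus not particular to antisense transcripts. A value of 0 was listed for 6 transcripts with hairpin 1, 5 with hairpin 7, 4 in scramble 1 and 5 in scramble 2.

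The largest rise among the called transcripts was that of ENSG00000272256, a clone-named transcript that starts 450 bases inside SARAF on the opposite strand in GENCODE 29. SARAF, listed under its older symbol TMEM66, restrains calcium entry that follows emptying of cell stores. ENSG00000272256 was at 3.72 FPKM with hairpin 1 and 2.92 FPKM with hairpin 7, against 0.08 and 0.10 FPKM in the scramble libraries. It was thus close to absent in scramble and reached the level for inclusion through the knockdown libraries. Its log2 change was 1.98 ± 0.21 (SE, adjusted p = 0.0283). SARAF was at 77.7 and 82.1 FPKM in knockdown and at 67.1 and 69.0 FPKM in scramble (log2 change 0.23, adjusted p = 0.198). The transcript shares 362 exonic bases with SARAF. No source used here gives the strand setting of the libraries, so wherever exons overlap, reads of an antisense transcript and of the gene across from it cannot be told apart.

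NOP14-AS1 (ENSG00000249673, chromosome 4) rose as well. It is named after NOP14, a factor that builds the small ribosomal subunit. In GENCODE 29 it starts 40 bases upstream of MFSD10, a membrane transporter gene on the other strand. NOP14-AS1 was at 5.65 and 5.03 FPKM in the knockdown libraries and at 2.14 and 1.65 FPKM in the scramble libraries, a ratio of means of 2.82 (log2 change 1.13 ± 0.17 SE, adjusted p = 0.0487). The groups did not overlap. NOP14 was at 13.8 and 12.3 FPKM in knockdown and 18.4 and 18.4 FPKM in scramble, with a log2 change of -0.46 ± 0.11 that missed the threshold (adjusted p = 0.0905). Their exons share 605 bases in GENCODE 29. MFSD10 was at 59.5 and 52.5 FPKM in knockdown and 56.3 and 58.5 FPKM in scramble (adjusted p = 0.846). The RefSeq start window of NOP14-AS1, 250 bases before to 50 after its start, is shown because the transcript and the gene it is named after lay on opposite sides of scramble in both hairpin libraries. It lies at chr4:2935296-2935595 of GRCh38.p14 on the plus strand. By RefSeq no gene on the other strand starts within it, so it does not hold a start of MFSD10. Capitals mark its 1 match to CCAAT, read here on the other strand as ATTGG.
NOP14-AS1: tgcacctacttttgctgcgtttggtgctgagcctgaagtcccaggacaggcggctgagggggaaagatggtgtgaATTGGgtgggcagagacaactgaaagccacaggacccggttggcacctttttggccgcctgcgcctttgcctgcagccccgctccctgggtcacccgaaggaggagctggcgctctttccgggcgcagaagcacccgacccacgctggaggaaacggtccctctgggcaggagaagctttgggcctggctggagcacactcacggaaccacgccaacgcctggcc

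RP11-783K16.5 (ENSG00000256940, chromosome 11), now named PPP1R14B-AS1, was the most abundant of the called transcripts that rose. PPP1R14B encodes an inhibitor of protein phosphatase 1. The antisense transcript was at 21.8 and 23.8 FPKM in knockdown and 12.2 and 13.6 FPKM in scramble, a ratio of 1.77 (log2 change 0.78 ± 0.11 SE, adjusted p = 0.0476). PPP1R14B itself was at 271.7 and 242.6 FPKM in knockdown and 254.9 and 256.5 FPKM in scramble (log2 change 0.01, adjusted p = 0.977). So the antisense transcript was higher in both hairpin libraries while the groups of the coding gene overlapped. RefSeq gives 2 starts for the antisense gene. The window of the second, at chr11:64246804-64247103 of GRCh38.p14 on the plus strand, also holds the start of PPP1R14B at its position 140, which is 111 bases from the antisense start. It is shown because both genes start in it and only 1 of them passed the test; capitals mark its 6 matches to the GC box GGGCGG, all on the other strand as CCGCCC, with 2 of them overlapping.
RP11-783K16.5: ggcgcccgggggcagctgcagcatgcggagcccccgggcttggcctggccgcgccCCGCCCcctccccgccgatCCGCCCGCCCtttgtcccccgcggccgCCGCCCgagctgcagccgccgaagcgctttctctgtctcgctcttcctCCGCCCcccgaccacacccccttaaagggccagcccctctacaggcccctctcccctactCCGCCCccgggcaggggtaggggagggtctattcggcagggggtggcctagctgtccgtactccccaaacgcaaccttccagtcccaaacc

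SNHG12 (ENSG00000197989, chromosome 1) fell. It hosts small nucleolar RNAs in its introns. SNHG12 was at 9.39 and 10.5 FPKM in knockdown and at 17.2 and 17.6 FPKM in scramble, 1.75-fold lower in the mean (log2 change -0.75 ± 0.11 SE, adjusted p = 0.0479). The 2 scramble values lay close together and both hairpin values far below them. The start window is shown for this called host gene. It lies at chr1:28581824-28582123 of GRCh38.p14 on the minus strand, with 2 matches to GGGCGG in capitals.
SNHG12: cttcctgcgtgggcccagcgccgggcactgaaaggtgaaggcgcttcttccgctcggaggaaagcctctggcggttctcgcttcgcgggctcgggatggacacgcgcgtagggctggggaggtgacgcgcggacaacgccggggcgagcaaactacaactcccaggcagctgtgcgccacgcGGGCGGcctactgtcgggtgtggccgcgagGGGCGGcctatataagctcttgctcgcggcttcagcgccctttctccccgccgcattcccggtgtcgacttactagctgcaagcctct

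The smallest adjusted p belonged to RP11-149I23.3 (ENSG00000232110, chromosome 10), which crosses LIPA, the gene of lysosomal acid lipase. It was at 54.3 and 63.4 FPKM in knockdown and at 160.5 and 161.3 FPKM in scramble, 2.73-fold lower (log2 change -1.44 ± 0.11 SE, adjusted p = 0.0162). LIPA was at 24.8 FPKM with hairpin 1 and 51.5 FPKM with hairpin 7, against 30.4 and 32.6 FPKM in scramble (adjusted p = 0.771). The LIPA groups overlapped, and the antisense row was listed above the coding gene in every library. Their exons share 135 bases in GENCODE 29.

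RN7SL1 (ENSG00000258486) is typed antisense in the table, although 7SL is the RNA scaffold of the signal recognition particle, which brings ribosomes to the endoplasmic reticulum. It was at 505 and 514 FPKM in knockdown and at 1281 and 2091 FPKM in scramble (log2 change -1.68 ± 0.25 SE, adjusted p = 0.0492). The hairpin libraries differed little, and the scramble libraries stood far apart from each other. RN7SL2, a near-identical gene of another type, was at 1064 and 907 FPKM in knockdown and 3203 and 4181 FPKM in scramble. RSEM, which the submitters name, divides reads among such copies, so the value of any single 7SL row is uncertain. With the 7SL rows left out, a setting added after seeing the data, the other 5 antisense calls remained.

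**Figure D2:**
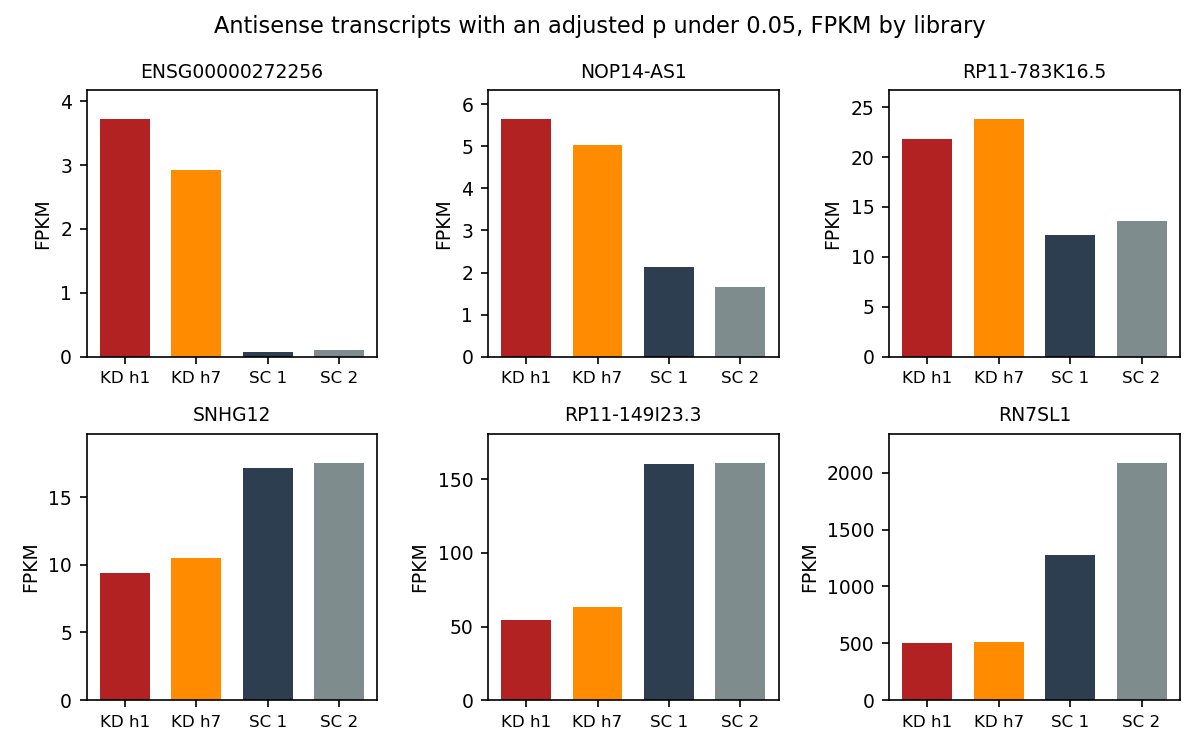
FPKM in each library (y axis of each panel, from 0) for the 6 antisense transcripts with a limma adjusted p under 0.05, with bars for NIPBL knockdown hairpin 1 (KD h1), hairpin 7 (KD h7), scramble 1 (SC 1) and scramble 2 (SC 2). The upper row is higher in both knockdown libraries and the lower row is lower, and RN7SL1 shows the widest gap between scramble bars, 1281 and 2091 FPKM.

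Other abundant antisense transcripts did not pass the test. AC011558.5 was at 125.6 and 148.6 FPKM in knockdown and 174.4 and 180.7 FPKM in scramble, with both hairpins below (log2 change -0.38, adjusted p = 0.140). ZFAS1, which hosts small nucleolar RNAs and starts 248 bases inside ZNFX1, was at 108.0 and 85.0 FPKM in knockdown and 107.3 and 109.8 FPKM in scramble (adjusted p = 0.457). Its groups overlapped, while ZNFX1, an RNA helicase gene of antiviral defence, was at 17.3 and 20.8 FPKM in knockdown and 12.3 and 12.1 FPKM in scramble (log2 change 0.60, adjusted p = 0.0790). RP11-669N7.2, now TMEM132D-AS1, was at 174.6 and 99.5 FPKM in knockdown and 112.8 and 135.9 FPKM in scramble, so the hairpins lay on either side of the scramble pair. FGD5-AS1 was at 43.1 and 56.7 FPKM in knockdown and 38.7 and 40.1 FPKM in scramble (log2 change 0.32, adjusted p = 0.260). FGD5, the endothelial gene it is named after, averaged under 1 FPKM and was not tested. THAP9-AS1 was at 28.1 and 21.5 FPKM in knockdown and 32.8 and 30.1 FPKM in scramble (adjusted p = 0.236), above THAP9, a transposase-derived gene, at 1.84 and 1.22 FPKM in knockdown and 1.98 and 1.85 FPKM in scramble. GS1-251I9.4, now OTUD6B-AS1, lay just above scramble at 18.7 and 19.6 FPKM in knockdown and 18.1 and 18.3 FPKM in scramble. It starts 7 bases from OTUD6B, a deubiquitinase gene at 13.3 and 12.8 FPKM in knockdown and 18.3 and 17.8 FPKM in scramble (adjusted p = 0.0874).

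Among transcripts with no overlap between groups, SBF2-AS1 came next in size after ENSG00000272256 and RP11-284F21.7. SBF2-AS1 was at 4.43 and 5.96 FPKM in knockdown and 1.33 and 1.79 FPKM in scramble (log2 change 1.27 ± 0.20 SE, adjusted p = 0.0540). RP11-284F21.7 was at 5.44 FPKM with hairpin 1 but 0.60 FPKM with hairpin 7, against 0.06 and 0.36 FPKM in scramble (adjusted p = 0.263). RP1-12G14.7 was at 2.07 and 3.79 FPKM in knockdown and 0.55 and 0.75 FPKM in scramble (adjusted p = 0.0886), and CTB-191K22.6, which crosses NR1H2, at 2.17 and 2.38 FPKM in knockdown and 0 and 1.18 FPKM in scramble (adjusted p = 0.168). These transcripts were low, and no adjusted p passed. On the lower side, RP11-386I14.4 had the largest log2 change, -2.28, but it was at 11.7 FPKM with hairpin 1 and listed at 0 with hairpin 7, against 19.4 and 13.6 FPKM in scramble (adjusted p = 0.292). RP11-498C9.13 was at 0 and 0.20 FPKM in knockdown and 3.57 and 1.11 FPKM in scramble (adjusted p = 0.117). RP3-337H4.9, across POLR1C, was at 1.82 and 0.41 FPKM in knockdown and 3.69 and 5.17 FPKM in scramble (adjusted p = 0.107). For AP004372.1 the values were 0.44 and 3.19 FPKM in knockdown and 4.85 and 3.66 FPKM in scramble (adjusted p = 0.264), so its hairpins differed more from each other than hairpin 7 did from scramble.

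For 66 transcripts the symbol was a gene name with -AS and a number. Of these, 62 had a row for the named gene and 50 of those genes averaged 1 FPKM or more and were tested. The antisense transcript was the rarer of the pair in most cases: over the 50 tested pairs its mean FPKM was 11.0% of that of its partner in the median, down to 0.141% for TPT1-AS1 against the translationally controlled tumour protein gene TPT1. In 5 of the 50 it was the more abundant, LIPE-AS1, MNX1-AS1, THAP9-AS1, TRIM52-AS1 and ZSCAN16-AS1. In GENCODE 29 all 61 pairs that could be placed lay on opposite strands, 55 with overlapping gene bodies, 46 with overlapping exons and 6 head to head with no overlap.

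Of the 50 partner genes, 1 passed the threshold (2.00%, against 2.56% of all genes tested), and at an unadjusted p under 0.05 there were 5 higher (10%) and 8 lower (16%), against 13.6% and 12.8% of all genes tested. The 1 called partner was ZNF571, a zinc finger gene on chromosome 19, at 9.06 and 9.80 FPKM in knockdown and 33.6 and 36.5 FPKM in scramble (log2 change -1.79 ± 0.11 SE, adjusted p = 0.0105). Its antisense transcript ZNF571-AS1 was at 1.88 and 0.89 FPKM in knockdown and at 5.80 and 5.34 FPKM in scramble (log2 change -1.49 ± 0.25 SE, adjusted p = 0.0558). Both members of the pair were lower in both hairpin libraries, although their starts lie 45876 bases apart in GENCODE 29 and their exons share 137 bases. Another zinc finger pair did not run in parallel: ZNF566 was at 8.06 and 7.98 FPKM in knockdown and 19.3 and 21.3 FPKM in scramble (adjusted p = 0.0189), while CTD-2630F21.1 across from it was at 3.69 and 2.78 FPKM in knockdown and 2.80 and 2.60 FPKM in scramble (adjusted p = 0.540). This second pair was chosen after its values were seen. RefSeq gives 2 starts for ZNF571-AS1. A window is shown because this is the pair with the called partner. The window of the first start, not shown, holds 1 match to CCAAT and 0 to the NRF1 motif GCGCATGCG. The window of the second, shown here, lies at chr19:37551121-37551420 of GRCh38.p14 on the plus strand. It also holds the opposite-strand start of LOC124904708 at its position 219, which is 32 bases from the antisense start. Capitals mark the NRF1 motif, which matched once on each strand at overlapping positions.
ZNF571-AS1: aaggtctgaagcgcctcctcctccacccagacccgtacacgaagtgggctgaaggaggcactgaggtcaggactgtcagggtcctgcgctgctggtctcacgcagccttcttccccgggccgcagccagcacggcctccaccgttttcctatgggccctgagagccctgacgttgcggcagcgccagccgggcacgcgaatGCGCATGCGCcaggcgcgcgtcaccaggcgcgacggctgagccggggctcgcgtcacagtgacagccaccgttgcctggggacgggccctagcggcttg

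Directions within pairs were mixed. In 7 pairs both transcripts lay above scramble in both hairpin libraries, in 2 both lay below, in 5 the antisense lay above and the partner below, in 1 the antisense below and the partner above, and in 35 at least 1 of the pair overlapped. Taken singly, 17 antisense transcripts were above and 7 below, and 15 partners above and 15 below, where 29.5% of all genes tested lay above and 30.8% below. Across the 50 pairs the log2 changes had a Pearson r of 0.24 and a Spearman rho of 0.09, and without the ZNF571 pair r was -0.02. The points share libraries, and overlapping exons may share reads, so these are descriptions.

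**Figure D3:**
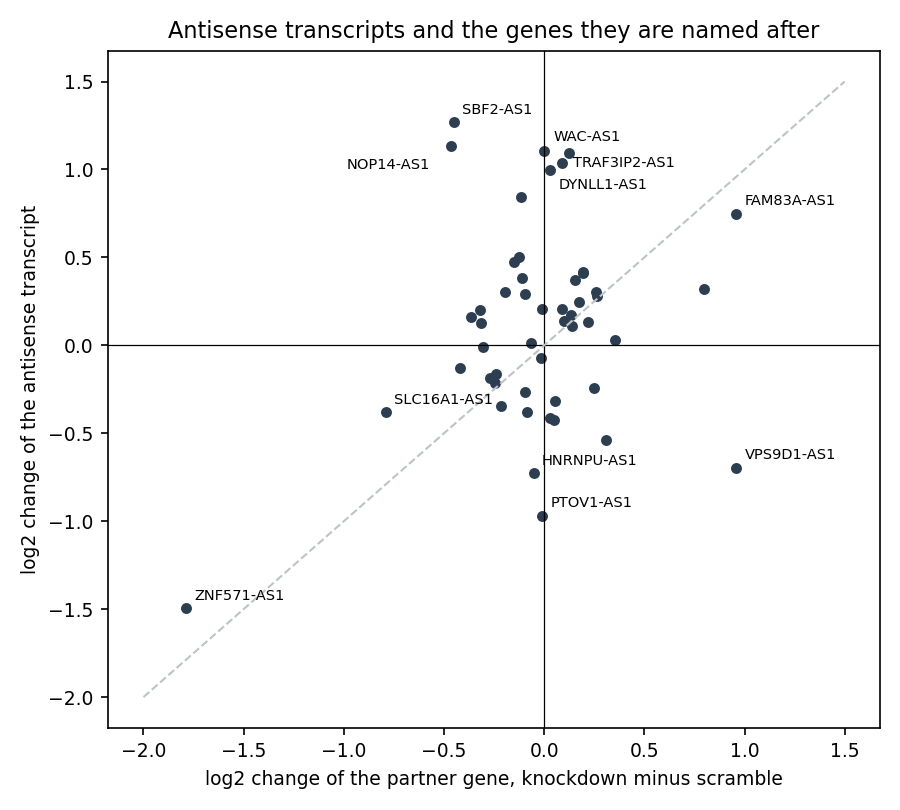
Log2 change of the antisense transcript (y axis) against that of the gene it is named after (x axis), as knockdown minus scramble in log2(FPKM + 1), for 50 pairs with both tested. The dashed line marks equal change; ZNF571-AS1 lies alone at the lower left, SBF2-AS1 and NOP14-AS1 at the upper left, and Pearson r is 0.24 with ZNF571-AS1 and -0.02 without it.

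The widest gap within a pair was that of SBF2-AS1. SBF2, which encodes a myotubularin-related protein of endosomal traffic, was at 12.4 and 12.5 FPKM in knockdown and 16.5 and 18.4 FPKM in scramble (log2 change -0.45 ± 0.11 SE, adjusted p = 0.0924), while SBF2-AS1 had the values given above, higher in both hairpin libraries. The difference in log2 change was 1.72, followed by 1.60 for NOP14-AS1 and NOP14. The start window of SBF2-AS1 is shown for this pair. It lies at chr11:9758043-9758342 of GRCh38.p14 on the plus strand and holds 2 matches to GGGCGG, in capitals.
SBF2-AS1: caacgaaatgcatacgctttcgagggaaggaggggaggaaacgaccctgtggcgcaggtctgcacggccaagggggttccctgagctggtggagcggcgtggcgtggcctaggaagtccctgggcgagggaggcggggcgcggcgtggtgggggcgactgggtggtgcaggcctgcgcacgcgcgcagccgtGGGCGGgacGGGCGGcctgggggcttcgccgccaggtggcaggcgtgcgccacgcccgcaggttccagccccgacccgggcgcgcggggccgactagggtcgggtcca

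At the other end was VPS9D1-AS1, at 1.51 and 0.31 FPKM in knockdown and 1.83 and 2.05 FPKM in scramble (adjusted p = 0.283). VPS9D1, named for a domain of proteins that activate Rab GTPases, was at 3.30 and 3.18 FPKM in knockdown and 1.53 and 0.88 FPKM in scramble (log2 change 0.96 ± 0.21 SE, adjusted p = 0.0852). The difference in log2 change was -1.66, and this was the 1 pair with the antisense below and the partner above. HNRNPU-AS1 was at 8.45 and 10.4 FPKM in knockdown and 15.9 and 16.4 FPKM in scramble (log2 change -0.73 ± 0.13 SE, adjusted p = 0.0648). HNRNPU, a nuclear RNA-binding scaffold gene, overlapped between groups at 303.3 and 265.1 FPKM in knockdown and 301.0 and 287.6 FPKM in scramble. PTOV1-AS1 was at 0.24 and 1.11 FPKM in knockdown and 1.82 and 2.55 FPKM in scramble (adjusted p = 0.157), with PTOV1 at 28.2 and 24.2 FPKM in knockdown and 25.7 and 26.8 FPKM in scramble. DYNLL1-AS1, now NRAV, was at 4.49 and 3.73 FPKM in knockdown and 2.76 and 0.74 FPKM in scramble (adjusted p = 0.197), against a dynein light chain gene DYNLL1 at 244.8 and 244.0 FPKM in knockdown and 246.2 and 232.9 FPKM in scramble. The coding genes of these last 3 pairs therefore overlapped between groups. WAC-AS1, RNF185-AS1, RAB11B-AS1 and KANSL1-AS1 had pair differences of 1.11, 0.97, -0.85 and -0.49, each with 1 library at 0 for the antisense transcript and overlapping groups.

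By Ensembl identifier, 283 of the 307 transcripts were found in GENCODE 29 (GRCh38), where 263 were still typed antisense. Since no source used here gives the build or annotation behind the files, only relations between genes are taken from it. Of the 283, 251 overlapped a protein-coding gene on the opposite strand, 194 of them in exons and 57 outside exons. A start within 1000 bases of an opposite coding start was found for 114, 45 of them upstream of it and 69 inside the gene.

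Over all genes tested, 29.5% lay above scramble in both hairpin libraries and 30.8% below, and 1.45% were called higher and 1.11% lower. Of the 69 transcripts that start just inside a coding gene, 27 were above (39.1%) and 8 below (11.6%), with a median log2 change of 0.19. The 45 that start just upstream had 18 above and 9 below, 1 called higher and a median of 0.01. The 156 that overlap a coding gene but start farther away had 40 above and 38 below, 2 called lower (1.28%) and a median of 0.03. The 13 with no overlap and a start farther away had 5 above and 4 below, 0 called and a median of 0.14. By limma 7 of these 13 had an unadjusted p under 0.05 (53.8%, against 26.4% of all genes tested). Whether these classes differ was not tested. The 2 called transcripts of the inside class were RP11-783K16.5 and ENSG00000272256. Of these, ENSG00000272256 reached 1 FPKM through the knockdown libraries alone. RP11-783K16.5 is in this class by its GENCODE 29 start, while its second RefSeq start lies upstream of PPP1R14B. Across the inside class, log2 changes of the transcripts and of the nearest coding genes had a Pearson r of 0.38 over 62 transcripts, against -0.02 over 40 upstream ones, as a description of transcripts that share libraries and possibly reads.

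**Figure D4:**
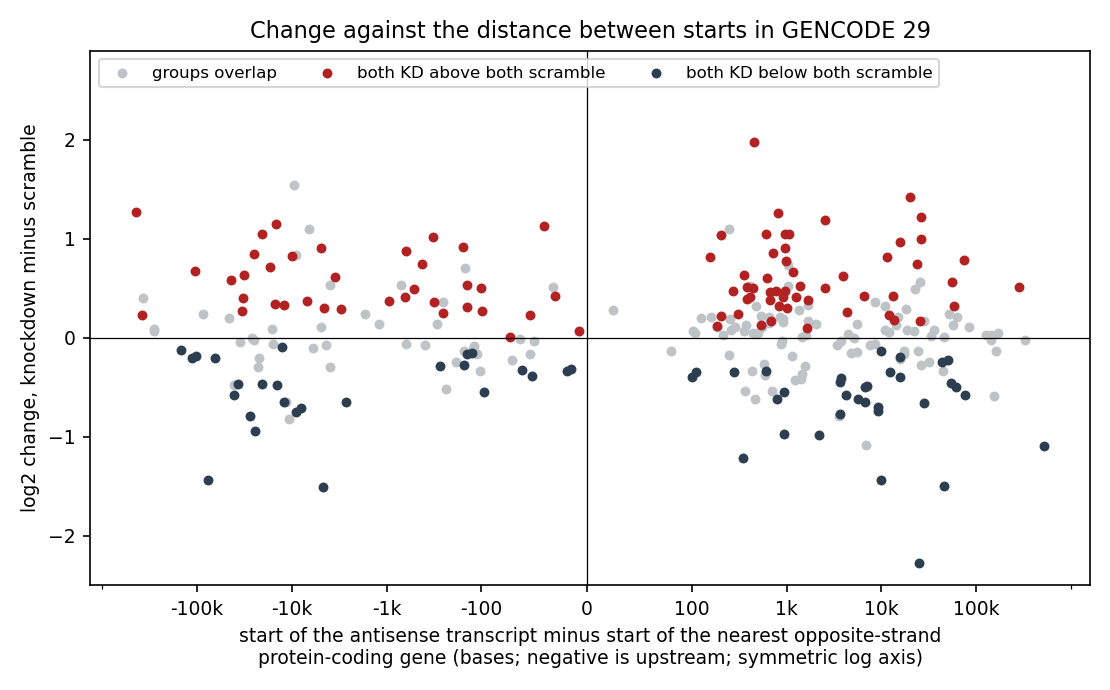
Change in log2(FPKM + 1), NIPBL knockdown minus scramble (y axis), against the position of the antisense start relative to the nearest opposite protein-coding start in GENCODE 29 (x axis, bases, symmetric log scale), with 1 point per transcript, coloured by whether the groups overlap. Between 0 and 1000 bases inside the gene, 27 points have both knockdown libraries above and 8 have both below.

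A group of 21 transcripts lay wholly within exons of an opposite coding gene. Their exonic length ran from 267 to 795 bases with a median of 512, against 1374 over all that were placed, and their mean FPKM was 11.0% of that of the other gene in the median. RP4-781K5.2, within an exon of the transcriptional corepressor gene IRF2BP2, was at 31.8 and 28.3 FPKM in knockdown and 15.8 and 10 FPKM in scramble (log2 change 1.19 ± 0.22 SE, adjusted p = 0.0673). IRF2BP2 rose, at 61.2 and 57.4 FPKM in knockdown and 31.2 and 35.3 FPKM in scramble (log2 change 0.82 ± 0.11 SE, adjusted p = 0.0409). Both were thus higher in both hairpin libraries. RP5-940J5.9, inside the glycolytic gene GAPDH, was at 33.7 and 34.5 FPKM in knockdown and 39.3 and 28.0 FPKM in scramble, or 1.19% of the level of GAPDH, which was at 3007 and 3338 FPKM in knockdown and 2488 and 2580 FPKM in scramble. Among the 21, 5 were above scramble in both hairpin libraries (23.8%, against 29.5% of all genes tested) and 5 below (23.8%, against 30.8%). By limma 0 were called (2.56% of all genes tested were), and 6 had an unadjusted p under 0.05 (28.6%, against 26.4%). These shares were near the background.

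Over all overlaps with a tested coding gene, 5 of 202 coding genes were called, a share near the 2.56% of all genes tested. They were ZNF571, ZNF566 and IRF2BP2, given above, with TSKU and BAZ2B. TSKU, a secreted signalling regulator, was at 30.0 and 35.3 FPKM in knockdown and 15.7 and 16.7 FPKM in scramble (log2 change 0.96 ± 0.12 SE, adjusted p = 0.0386). Its antisense transcript RP11-21L23.3, which shares no exonic base with it, was at 3.37 and 2.72 FPKM in knockdown and 1.84 and 0 FPKM in scramble (adjusted p = 0.208). BAZ2B, a bromodomain gene, was at 16.6 and 15.3 FPKM in knockdown and 9.19 and 8.56 FPKM in scramble (adjusted p = 0.0446), with AC009506.1 at 1.77 and 1.04 FPKM in knockdown and 0.94 and 0.41 FPKM in scramble (adjusted p = 0.309). For TSKU and BAZ2B, as for IRF2BP2, both transcripts of the locus were higher in both hairpin libraries, but the antisense one did not pass.

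Transcripts of the HOX clusters, which hold the body-patterning homeobox genes, numbered 7. None was called by limma (2.56% of all genes tested were), and 1 had an unadjusted p under 0.05 (26.4% of all genes tested). In both hairpin libraries 4 were above scramble and 1 below, against 29.5% and 30.8% of all genes tested, and so few transcripts do not set the clusters apart. HOTAIRM1, a noncoding RNA known from myeloid cells, was at 4.19 and 3.04 FPKM in knockdown and 7.97 and 11.7 FPKM in scramble (log2 change -1.22 ± 0.23 SE, adjusted p = 0.0673). From the same cluster, HOXA-AS2 was at 5.15 and 2.72 FPKM in knockdown and 2.68 and 0.77 FPKM in scramble (adjusted p = 0.264), and HOXA10-AS at 3.86 and 3.66 FPKM in knockdown and 3.12 and 2.06 FPKM in scramble (adjusted p = 0.256). HOXC-AS3 was at 6.74 and 5.66 FPKM in knockdown and 4.70 and 1.19 FPKM in scramble, and HOXD-AS1 at 1.67 and 2.91 FPKM in knockdown and 1.30 and 1.23 FPKM in scramble. So HOTAIRM1 was lower in both hairpin libraries and its neighbours in the HOXA cluster were not.

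The expressed antisense transcripts included 7 small RNA genes and hosts of small nucleolar RNAs. They were grouped after their values were known, so the 2 called lower among them, RN7SL1 and SNHG12, support nothing about the group, and 1.11% of all genes tested were called lower. SNHG7 lay in the same direction at 4.80 and 5.03 FPKM in knockdown and 7.09 and 6.52 FPKM in scramble (log2 change -0.40, adjusted p = 0.138). RPPH1, the RNA of ribonuclease P, was at 5.67 and 4.65 FPKM in knockdown and 3.85 and 6.07 FPKM in scramble. SNHG10 was at 5.95 and 1.86 FPKM in knockdown and 2.57 and 2.78 FPKM in scramble, and SCARNA9 at 3.93 and 5.53 FPKM in knockdown and 4.97 and 3.04 FPKM in scramble. With ZFAS1, these last 3 had overlapping groups.

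Of 43 antisense RNAs listed as studied in cells, 11 were expressed here and 0 were called by limma. At an unadjusted p under 0.05, 1 was higher (SBF2-AS1) and 1 lower (HOTAIRM1), against 13.6% and 12.8% of all genes tested. In both hairpin libraries 5 were above scramble and 1 below, against 29.5% and 30.8% of all genes tested. TP73-AS1 was at 3.16 and 3.03 FPKM in knockdown and 2.46 and 1.74 FPKM in scramble (adjusted p = 0.244). SLC16A1-AS1 overlapped between groups at 0.46 and 1.39 FPKM in knockdown and 2.49 and 0.69 FPKM in scramble, beside SLC16A1, the lactate transporter gene, at 44.0 and 34.1 FPKM in knockdown and 67.5 and 67.7 FPKM in scramble (adjusted p = 0.0658). MCM3AP-AS1, MNX1-AS1 and TMPO-AS1 also overlapped, with log2 changes of -0.07, -0.13 and 0.16.

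The 2 hairpins gave very different values for some transcripts, which 1 library each cannot test. RP11-53O19.1, now MRPS30-DT, was at 24.5 FPKM with hairpin 1 and 0.06 FPKM with hairpin 7, against 0 and 9.12 FPKM in scramble, so the scramble libraries disagreed as well. CTD-2545M3.2 was at 4.31 FPKM with hairpin 1 and 0 with hairpin 7, against 3.96 and 3.77 FPKM in scramble. RP11-867G23.4 was at 4.0 FPKM with hairpin 1 and 0 with hairpin 7, against 0.85 and 0.29 FPKM in scramble. In the other direction, RP11-152H18.3 was at 0 with hairpin 1 and 3.18 FPKM with hairpin 7, against 2.54 and 2.70 FPKM in scramble, and CTB-31O20.6 at 0 and 2.81 FPKM, against 0.38 and 3.14 FPKM in scramble. TSPEAR-AS1 was at 0 and 2.47 FPKM with hairpins 1 and 7, against 0.37 and 1.46 FPKM in scramble, and RP11-366F6.2 at 0.30 and 3.22 FPKM, against 1.76 and 2.28 FPKM in scramble. All but RP11-53O19.1 were rare, and for each of these 7 the groups overlapped.

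Start windows from RefSeq were found for 131 of the 307 transcripts, 165 windows in all. Their median was 25 CpG dinucleotides and 65.3% G and C, against 14 and 58.7% over all 35116 windows of the table. On either strand, the GC box GGGCGG was in 69.7% of the windows of antisense transcripts and 45.0% of all windows, CCGGAAG of ETS factors in 14.5% and 10.3%, AAGATGGC of YY1 in 6.06% and 2.89%, GCGCATGCG of NRF1 in 4.24% and 1.92%, and the E-box CACGTG of MYC and its partners in 10.9% and 7.26%. The TATAAA box was in 6.06% and 11.5%, and CCAAT in 35.2% and 34.6%. The windows of all genes were not limited to expressed genes, so these differences are not shown to be particular to antisense transcripts. A match says only that the letters are present.

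The threshold of 1 FPKM has no gap at it. Just inside were RP11-392P7.6, RP11-465N4.4 and FBXL19-AS1, with means of 1.01, 1.01 and 1.01 FPKM, and just outside were RP11-549B18.1, RP11-110G21.1 and RP11-5C23.1, with means of 0.985, 0.975 and 0.970 FPKM. Among the 10 rows left out for zeros, TOLLIP-AS1 was at 3.39 and 2.30 FPKM in knockdown and listed at 0 in both scramble libraries, and MID1IP1-AS1 was listed at 0 in both knockdown libraries, against 1.51 and 2.68 FPKM in scramble. RP1-261G23.7 was at 29.8 FPKM with hairpin 1 and 0 with hairpin 7, against 35.0 and 0 FPKM in scramble. RP4-616B8.4 was at 37.2 FPKM with hairpin 7 and at 0 elsewhere. DNAJC27-AS1 had 2.98 FPKM with hairpin 7 and 2.03 FPKM in scramble 1 and was at 0 in the others, and each of the other 5 was above 0 in a single library.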

How the data were processed

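The authors deposited FPKM per gene with 2 decimals for 4 RNA sequencing libraries. The alignment and quantification tools were STAR and RSEM per the submitters' processing notes, with no version given. No source used here gives genome build, annotation, strand setting or filters, and depth is unknown. Of 344810 rows, 53777 had an Ensembl identifier. Rows without one held 8.47% to 9.27% of FPKM and stayed out of the main test.

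The test was limma 3.58.1 (R 4.3.3) on log2(FPKM + 1) (eBayes, mean trend, two-sided, Benjamini and Hochberg over 12834 genes averaging at least 1 FPKM, 2 residual and 2.87 prior degrees of freedom). The fit was run on simulated data with equal spread in all 4 libraries, as a check on the direction of changes only. That run does not test the calls made here. Overlaps and start distances came from GENCODE 29 by identifier, and start windows and their motif matches from RefSeq (GRCh38.p14). The antisense transcripts and all gene lists were chosen with earlier results of these data known. Genes named are NIPBL, called antisense transcripts and partners, the 10 most abundant, the 8 largest changes per direction without overlap between groups, the 5 largest pair differences and 4 largest hairpin differences per direction, those at the threshold, rows left out for zeros and a list of studied antisense RNAs. Genes outside that rule were chosen after their values were seen, namely the genes across from or beside a named transcript, the pairs with the extremes of level, and the HOX and small RNA groups.

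Alternatives were other pseudocounts, filters, scalings and variance models, unnamed rows in the fit, libraries left out, scramble libraries averaged, other thresholds for inclusion, and 7SL rows left out.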

Additional observations from a re-analysis of the deposited data

How the results depend on the processing

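No paired analysis was possible because the labels number no replicates across groups. With no filter on low values, limma called 0 antisense transcripts (45 at an unadjusted p under 0.05), 0 partner genes and 1 gene of all, and NIPBL kept its log2 change of -1.42 with an adjusted p of 0.118. With the scramble libraries averaged, 0 antisense transcripts (33 at an unadjusted p under 0.05), 0 partners (4) and 0 of all genes (975) were called, and NIPBL was at -1.42 with an adjusted p of 0.281. Leaving out 1 library at a time gave 0 to 57 antisense calls, 0 to 14 partner calls and 0 to 4532 calls over all genes, with 0 when either scramble library was left out (1060 and 1052 of all genes and 4 and 4 partners at an unadjusted p under 0.05). It gave log2 changes of NIPBL from -1.57 to -1.27 and medians of the antisense transcripts from 0.0782 to 0.0895. Antisense calls numbered 2 with a filter at 0.5 FPKM, 2 with unnamed rows in the fit (130 over all genes), 3 with quantile normalization and 3 with no mean trend. Taking antisense transcripts from 0.5 FPKM gave 499 of them, with 2 called, and from 2 FPKM gave 179. The median log2 change was 0.0899 and 0.0844 with pseudocounts of 0.1 and 0.5, 0.0295 with quantile normalization and 0.0814 with median-ratio scaling. Of 14 alternatives, RP11-149I23.3 and ENSG00000272256 were called in 10 each, NOP14-AS1 in 7, and SNHG12 and RP11-783K16.5 in 6 each, and RN7SL1 was called in 4 of 13, all in their main direction. The called partner ZNF571 was called in 10 of 14. The cause of these differences was not tested.

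Over all named genes and alternatives, 742 values kept direction and side of the threshold, 44 lost it, 28 gained it and 39 changed sign. TSPEAR-AS1 was at -0.76, -0.10 and -0.014 with pseudocounts of 0.1 and 0.5 and quantile normalization, FBXL19-AS1 at -0.02 with quantile normalization, and WAC at 0.0063 with quantile normalization and 0.0063 with median-ratio scaling. Signs also changed when 1 library was left out, with log2 changes running from -1.26 to 0.67 for CTB-31O20.6, from -2.28 to 0.13 for CTD-2545M3.2, from -0.011 to 0.069 for DYNLL1, from -0.022 to 0.084 for FBXL19-AS1, from -0.15 to 0.044 for HNRNPU, from -1.11 to 0.62 for KANSL1-AS1, from -0.25 to 0.10 for MCM3AP-AS1, from -0.30 to 0.035 for MNX1-AS1, from -0.12 to 0.097 for PTOV1, from -1.30 to 0.22 for RAB11B-AS1, from -0.0058 to 0.25 for RNF185, from -0.46 to 2.66 for RNF185-AS1, from -1.86 to 0.21 for RP11-152H18.3, from -1.21 to 0.49 for RP11-366F6.2, from -0.28 to 0.019 for RP11-392P7.6, from -1.59 to 3.01 for RP11-53O19.1, from -0.31 to 0.49 for RP11-669N7.2, from -0.63 to 1.69 for RP11-867G23.4, from -0.20 to 0.27 for RP5-940J5.9, from -0.90 to 0.14 for SLC16A1-AS1, from -0.11 to 0.44 for TMPO-AS1, from -0.88 to 0.92 for TSPEAR-AS1 and from -0.088 to 0.082 for WAC. FPKM keeps no depth, and with 2 libraries a group small changes of rare transcripts were not detectable.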

Other observations

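Annotation of these transcripts has moved since the table was made. In GENCODE 29, 6 of the 307 are protein-coding, among them TOPORS-AS1, now SMIM27, and RP11-139H15.1, now PIGBOS1, a microprotein gene of the mitochondrial outer membrane. TOPORS-AS1 was at 11.6 FPKM with hairpin 1 and 1.88 FPKM with hairpin 7, against 6.60 and 7.50 FPKM in scramble. RP11-139H15.1 was at 6.56 and 6.21 FPKM in knockdown and 5.51 and 5.15 FPKM in scramble (limma adjusted p = 0.310). LINC00094, now BRD3OS, was at 14.8 and 12.6 FPKM in knockdown and 9.81 and 10.4 FPKM in scramble (adjusted p = 0.137). The genes were chosen after their values were seen.

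CSAG2 and CSAG3, near-identical cancer-testis genes typed antisense in the table, moved together in every library. CSAG2 was at 2.94 and 4.45 FPKM in knockdown and 3.96 and 3.56 FPKM in scramble, and CSAG3 at 5.88 and 8.90 FPKM in knockdown and 7.93 and 7.12 FPKM in scramble. Reads of such copies are divided by the counting step, so neither value stands alone. TRIM52-AS1 was among the steadiest transcripts, at 7.54 and 7.55 FPKM in knockdown and 7.53 and 7.42 FPKM in scramble.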
